A study of Homo sapiens with 9 samples.

Results

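SAT1 encodes spermidine/spermine N1-acetyltransferase, and its transcript was followed here together with 9 other genes of polyamine metabolism in human colon cancer cells. SAT1 was chosen because it is among the genes that were lowest in H2A.X-deficient cells relative to control cells on these same arrays, so its own difference is given as a description, with no test. The 9 others, ODC1, AMD1, SRM, SMS, OAZ1, AZIN1, SAT2, SMOX and PAOX, were listed by their function, and all 9 have a named probe set. The 10 genes stand among 14884 genes with a named probe set. The samples were HCT116 cells, an established human colorectal carcinoma line of epithelial origin, which carried either a hairpin against H2AFX, the gene of the histone variant H2A.X (shH2A.X, 5 arrays), or a scrambled control hairpin (shCTRL, 4 arrays). By the methods, both hairpins were delivered by lentivirus, and infected cells were either collected for analysis or selected with puromycin. Which route the array samples took is not said there. Both cultures were grown for 72 h in DMEM with 10% serum before RNA was taken. The methods describe a knockdown line and a control line of stable, selected cells, and a legend calls the arrays of a group independent replicates, without saying whether the infections, clones or cultures were separate. The p-values therefore cover the spread between these arrays, part or all of which may be technical. Each array was an Affymetrix GeneChip Human Gene 2.0 ST chip hybridized with cDNA made from 100 ng of total RNA, and values are log2 expression values as normalized by the authors.

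Polyamines, namely putrescine, spermidine and spermine, are small cations that bind nucleic acids and are needed for growth. Ornithine decarboxylase (ODC1) makes putrescine from ornithine, and spermidine synthase (SRM) and spermine synthase (SMS) then add aminopropyl groups that are supplied by S-adenosylmethionine decarboxylase (AMD1). The acetyltransferase encoded by SAT1 starts the way back: it acetylates spermine and spermidine, which are then exported from the cell or oxidized by PAOX, whereas SMOX oxidizes spermine directly. In colorectal tumours ODC1 is a known target gene of MYC, and polyamine synthesis in the gut has been studied as a target for chemoprevention. Several of these proteins are controlled after transcription, so transcript values say nothing about enzyme activity or polyamine content.

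The whole table frames these values as follows. Array medians lay between 4.54 and 4.58, and across probe sets arrays of one group correlated at 0.990 to 0.992, whereas arrays of different groups correlated at 0.985 to 0.987. No probe set is named here for H2A.X, so the targeted transcript was not analysed here. Of 11 measured epithelial markers, 2 (18.2%) were higher and 3 (27.3%) were lower in shH2A.X cells (limma, adjusted p under 0.05), where 12.2% and 10.7% of all genes tested were, and their mean log2 value was 7.85 to 7.91 in the shH2A.X arrays and 7.94 to 8.05 in the shCTRL arrays. None of these 11 lay below the median of every array. Of 3 measured fibroblast markers 0 passed (limma, with 0 higher and 1 lower at an unadjusted p under 0.05, and 0 higher and 1 lower in the methods' t-test after adjustment), and their mean value was 3.58 to 3.80 in shH2A.X and 3.78 to 3.94 in shCTRL arrays. Of 5 leukocyte and endothelial markers only CD68 passed, higher in shH2A.X cells by 0.90 on the log2 scale, whereas by unadjusted limma p-values under 0.05 4 were higher, and the mean value of the 5 was 4.62 to 4.68 in shH2A.X and 4.25 to 4.36 in shCTRL arrays. Over all 14884 genes tested, 2569 were higher and 2400 lower at an unadjusted limma p under 0.05. In the methods' t-test after adjustment 1725 were higher and 1488 lower. In these 2 marker lists, 2 of the 3 fibroblast markers and 3 of the 5 others lay below the median of every array. The part of these markers in the SAT1 values was not tested.

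SAT1 was much lower in every shH2A.X array than in any shCTRL array. Its gene (identifier 6303) lies on chromosome X of GRCh38.p14 from 23783173 to 23786210, and 1 probe set is named for it. SAT1 had log2 values of 8.19, 8.30, 7.94, 8.02 and 8.16 in the shH2A.X arrays and of 11.20, 11.21, 11.09 and 11.26 in the shCTRL arrays. The groups were separated by a gap of 2.79, whereas the values of a group spanned 0.36 among the shH2A.X and 0.17 among the shCTRL arrays. Its mean was 8.12 ± 0.14 over shH2A.X arrays (SD, n = 5) and 11.19 ± 0.07 over shCTRL arrays (SD, n = 4), a log2 difference (log2 fold change) of −3.07 (SE 0.08). On the linear scale the signal of shH2A.X cells was 11.9% of that of shCTRL cells, that is 8.40-fold lower. In bulk RNA such a value does not tell fewer expressing cells from less RNA per cell. These are the values by which SAT1 was chosen. SAT1 stood at place 3 in the order of falls among the 14884 genes. The genes next to it in that order were CAPN6 and RNF43, with log2 differences of −3.68 and −3.40, and S100A14, GRHL2 and EGR1, with −2.97, −2.76 and −2.39.

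The gene table lists 2 RefSeq transcripts of SAT1, of which 1 is non-coding. In human cells an alternative exon that disrupts the reading frame is known to be included in SAT1 transcripts when polyamines are scarce. The single SAT1 value of an array does not tell coding from non-coding transcripts. The start region of SAT1 is shown because SAT1 differed most between the groups among the 10 genes. It spans 250 bases before to 50 bases after the annotated start and is taken from RefSeq (GRCh38.p14, plus strand, chrX:23782923-23783222), with CCAAT boxes in capitals, the first of them on the opposite strand as ATTGG.
SAT1: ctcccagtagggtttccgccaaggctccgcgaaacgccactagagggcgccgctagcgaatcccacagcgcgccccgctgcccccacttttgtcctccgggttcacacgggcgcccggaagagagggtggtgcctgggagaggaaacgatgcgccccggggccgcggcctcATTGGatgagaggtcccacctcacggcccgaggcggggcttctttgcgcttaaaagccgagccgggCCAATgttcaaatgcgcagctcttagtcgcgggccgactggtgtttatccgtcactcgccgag
Counted from the first transcribed base as 0, the CCAAT letters lie at −79 to −75 and at −13 to −9. CCAAT occurs on either strand in 34.6% of 35116 such windows of all genes. Of the 10 genes, 7 have a window, and 6 of these 7 hold CCAAT, namely SAT1, AMD1, SRM, SMS, SAT2 and OAZ1, as do 39.7% of the 27305 genes with a window. A gene can have several windows, as 3 of the 7 do. Other searched letters were absent from the SAT1 window: TATGACTAA, known as the polyamine-responsive element of human SAT1 (0.0997% of windows), CAGGTG, an E-box type that Slug and ZEB1 can bind (20.6% of windows), CACGTG, the E-box of MYC (7.26%), GGGCGG, a GC box (45%), TGACGTCA (1.85%) and TGACNNNGC, the core of the antioxidant response element (13.3%). All were searched on both strands, and absence says only that these letters are not in this window. Sequence more than 250 bases before the start was not searched, so the absence of TATGACTAA does not bear on elements farther upstream.

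**Figure D1:**
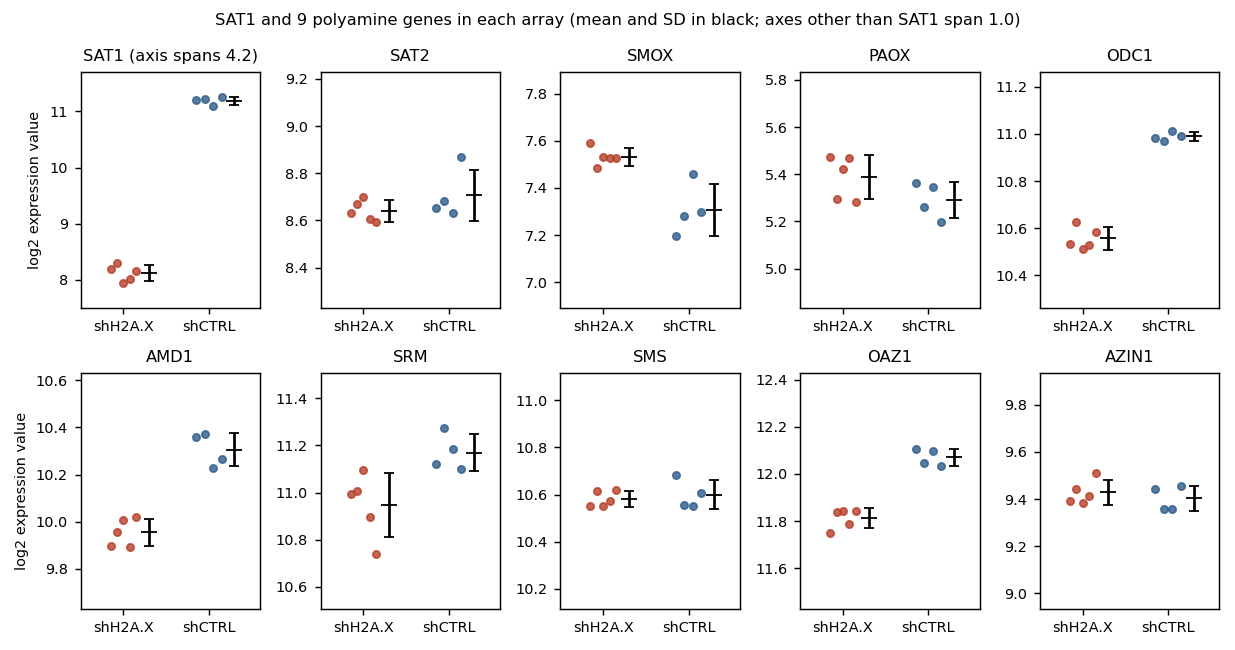
Log2 expression values (vertical axes) of SAT1 and 9 other polyamine genes in each array, with shH2A.X arrays (5 points) left of shCTRL arrays (4 points) and the mean ± SD in black. SAT1 differs by 3.07 on an axis that spans 4.2, whereas the other genes, on axes that span 1.0, differ by at most 0.43.

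Among the 9 other genes of the set, the decarboxylase genes ODC1 and AMD1 and the antizyme gene OAZ1 were lower in shH2A.X cells, and the oxidase gene SMOX was higher. In counts, 3 of the 9 were lower, 1 was higher and 5 did not pass the limma test with Benjamini-Hochberg adjustment over all genes. Over all genes tested, 10.7% were lower and 12.2% were higher, 22.9% in all. The arrays of the groups did not overlap in 5 of the 9 genes, 4 of them with every shH2A.X array below every shCTRL array, where 22.8% of all genes tested had no overlap, 10.7% with shH2A.X below. The median log2 difference of the 9 was −0.07, against 0.00 over all genes tested. Their changes were small beside that of SAT1, whose log2 difference was 7.09 times as large as that of ODC1, the next in size. Since SAT1 was chosen for its fall on these arrays and the 9 by function, this contrast follows from the choice and is no result.

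In the synthetic arm ODC1 and AMD1 fell. ODC1 had log2 values of 10.53, 10.63, 10.51, 10.53 and 10.58 in the shH2A.X arrays and of 10.98, 10.97, 11.01 and 10.99 in the shCTRL arrays. The groups did not overlap, and the gap of 0.34 between them was wider than the span of either group. ODC1 was 1.35-fold lower (log2 difference −0.43, limma adjusted p = 0.000115, SE 0.05). AMD1 had values of 9.90, 9.96, 10.01, 9.89 and 10.02 in the shH2A.X arrays and of 10.36, 10.37, 10.23 and 10.27 in the shCTRL arrays. These too were separate, with a log2 difference of −0.35 (limma adjusted p = 0.0012, SE 0.06). SRM, which makes spermidine, had values of 11.00, 11.01, 11.10, 10.90 and 10.74 in the shH2A.X arrays and of 11.12, 11.28, 11.18 and 11.10 in the shCTRL arrays. Its groups lay side by side without overlap, separated by only 0.0023, and its log2 difference of −0.22 (SE 0.08) did not pass (limma adjusted p = 0.0615, with 0.0109 to 0.163 across all alternatives). SRM passed without shH2A.X replicate 3 (0.0378), with dim probe sets left out (0.0382) and with a mean-variance trend (0.0109). SMS, which makes spermine, overlapped between groups, with 10.55 to 10.62 in shH2A.X and 10.55 to 10.68 in shCTRL arrays. Its log2 difference was −0.02 with a 95% interval of −0.14 to 0.10, so that a change as large as that of ODC1 lay outside the interval. The fifth measured gene of the synthesis list, AGMAT, named for its likeness to agmatine ureohydrolase, had a log2 difference of 0.07 (limma adjusted p = 0.701, SE 0.09). Of these 5 genes 2 fell and 0 rose (limma, with 3 and 0 at an unadjusted p under 0.05, and 2 and 0 in the methods' t-test after adjustment). Over all genes tested, 10.7% fell and 12.2% rose by limma. At an unadjusted limma p under 0.05, 2400 of the 14884 genes fell and 2569 rose. In the methods' t-test after adjustment 1488 fell and 1725 rose.

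The second annotated start of ODC1 is shown because it holds CACGTG, the E-box of MYC. It is from RefSeq (GRCh38.p14, minus strand, chr2:10447963-10448262), written along the gene, with CACGTG in capitals.
ODC1: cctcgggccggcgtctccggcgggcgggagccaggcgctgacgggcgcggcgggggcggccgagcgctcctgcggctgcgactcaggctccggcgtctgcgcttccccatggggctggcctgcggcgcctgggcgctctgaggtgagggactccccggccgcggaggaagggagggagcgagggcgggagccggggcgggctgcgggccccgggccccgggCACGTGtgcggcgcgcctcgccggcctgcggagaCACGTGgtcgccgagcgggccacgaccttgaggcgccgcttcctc
The first match lies at −29 to −24 and the second at 5 to 10, counted from that start as 0. Of the 7 genes with a window, ODC1 and SRM hold CACGTG, SRM at −199 to −194, as do 8.77% of all genes with a window. The other window of ODC1 holds none. The match is one of letters and shows no binding. Whether MYC had a part in the ODC1 values was not tested.

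ODC1 protein is destroyed after binding to antizymes, which are themselves held by antizyme inhibitors. Of the 5 genes of this switch 1 fell (20%) and 0 rose, where 10.7% and 12.2% of all genes did. OAZ1, the main antizyme, had values of 11.75, 11.84, 11.84, 11.79 and 11.84 in the shH2A.X arrays and of 12.11, 12.05, 12.10 and 12.03 in the shCTRL arrays. The groups were 0.19 apart, and OAZ1 was 1.20-fold lower (log2 difference −0.26, limma adjusted p = 0.00405, SE 0.05). AZIN1, the antizyme inhibitor, ranged from 9.38 to 9.51 in shH2A.X and from 9.36 to 9.45 in shCTRL arrays. The ranges overlapped, and the log2 difference of AZIN1 was 0.03 with a 95% interval of −0.10 to 0.15. The other members OAZ2, OAZ3 and AZIN2 did not pass, with log2 differences of 0.01, −0.17 and 0.10. None of the 5 rose by limma, at an unadjusted p under 0.05 or in the methods' t-test. Of all 14884 genes, 2569 were higher at an unadjusted limma p under 0.05.

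On the catabolic side neither relative of SAT1 passed the test. SAT2, a paralogue that has kept the acetyltransferase fold but for which thialysine is a better substrate than polyamines, had values of 8.63, 8.67, 8.70, 8.61 and 8.59 in the shH2A.X arrays and of 8.65, 8.68, 8.63 and 8.87 in the shCTRL arrays. Apart from shCTRL replicate 4, at the high end, the arrays of both groups lay in the same range. The log2 difference of SAT2 was −0.07 with a 95% interval of −0.21 to 0.07 (limma adjusted p = 0.532). SATL1, a further gene of the family, had a log2 difference of −0.22 (limma adjusted p = 0.0921, SE 0.09). PAOX, which oxidizes the acetylated products of SAT1, ranged from 5.28 to 5.47 in shH2A.X and from 5.20 to 5.36 in shCTRL arrays. Its groups overlapped, and its log2 difference was 0.10 with a 95% interval of −0.05 to 0.24.

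SMOX, the spermine oxidase, was the gene of the 9 that rose. It had values of 7.59, 7.48, 7.53, 7.53 and 7.53 in the shH2A.X arrays and of 7.19, 7.28, 7.46 and 7.30 in the shCTRL arrays. The lowest shH2A.X array was 0.02 above the highest shCTRL array, replicate 3. SMOX was 1.17-fold higher (log2 difference 0.22, limma adjusted p = 0.0252, SE 0.06). The call was lost when p-values were adjusted over all probe sets (0.0723) and without shH2A.X replicate 1 (0.0557) or any of shCTRL replicates 1 (0.0734), 2 (0.0655) and 4 (0.054), with 0.00911 to 0.1 across all alternatives.

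The largest difference among the other 8 measured genes of the catabolism list was that of MAOB. MAOA and MAOB encode the mitochondrial monoamine oxidases, and MAOB can also oxidize acetylated putrescine. MAOB had values of 6.66, 6.43, 6.13, 6.08 and 6.55 in the shH2A.X arrays and of 7.03, 7.28, 7.06 and 6.94 in the shCTRL arrays. The shH2A.X arrays were spread more widely, but all lay below the shCTRL arrays, and MAOB was 1.63-fold lower (log2 difference −0.71, limma adjusted p = 0.00148, SE 0.12). MAOA had values of 7.13, 7.20, 7.33, 7.11 and 7.15 in the shH2A.X arrays and of 7.42, 7.56, 7.42 and 7.72 in the shCTRL arrays, again without overlap, and fell by 0.35 (limma adjusted p = 0.00742, SE 0.08). AOC1, the secreted diamine oxidase that degrades putrescine, and HDAC10, a deacetylase of acetylated polyamines, did not pass (log2 differences of 0.01 and 0.16). In all, 1 of these 8 rose (12.5%, near the 12.2% of all genes) and 2 fell (25%, where 10.7% of all genes did).

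Polyamine uptake and the use of spermidine to modify the translation factor eIF5A were measured in few genes. Of 16 transport genes on the list 5 have a named probe set. Among the transporters of the ATP13A family, ATP13A2 and ATP13A3, which carry polyamines out of endosomes and lysosomes, had log2 differences of −0.10 (limma adjusted p = 0.288) and −0.15 (adjusted p = 0.0639). GPC1, a cell-surface heparan sulphate proteoglycan that has been linked to polyamine uptake, had values of 7.81, 7.36, 7.79, 7.61 and 7.91 in the shH2A.X arrays and of 7.38, 7.33, 7.17 and 7.21 in the shCTRL arrays. Replicate 2 of shH2A.X lay within the shCTRL range, and GPC1 was higher by 0.42 (limma adjusted p = 0.0125, SE 0.11). With the mean of its 2 probe sets the rise was 0.27 and did not pass (adjusted p = 0.0715, with 0.00143 to 0.0715 across all alternatives). Of the 5, 1 rose (20%) and 0 fell by limma, where 12.2% and 10.7% of all genes did. At an unadjusted limma p under 0.05 1 was lower, as was 1 in the methods' t-test after adjustment. Of all 14884 genes, 2400 and 1488 were lower by these measures.

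EIF5A2, the second gene of eIF5A, was the 1 of 5 genes of hypusination that rose (20%, where 12.2% of all genes rose and 10.7% fell). Its values were 8.67, 8.67, 8.77, 8.67 and 8.81 in the shH2A.X arrays and 8.26, 8.32, 8.23 and 8.17 in the shCTRL arrays. The groups were well apart, and EIF5A2 was 1.38-fold higher (log2 difference 0.47, limma adjusted p = 0.000168, SE 0.06). EIF5A had a log2 difference of −0.32 (limma adjusted p = 0.0872, SE 0.12) and its near-identical copy EIF5AL1 of −0.17 (SE 0.08), values that are uncertain because probes may not tell the copies apart. The enzymes of hypusination, DHPS and DOHH, had log2 differences of −0.11 and 0.01 and did not pass. No gene of these 5 fell by limma or in the methods' t-test after adjustment, and 2 were lower at an unadjusted p under 0.05 from limma. At that unadjusted threshold 2400 of all 14884 genes were lower.

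Around the core pathway, the gene that recycles its by-product fell most. Methylthioadenosine, released when spermidine and spermine are made, is cleaved by MTAP and returned to methionine. MTAP had values of 8.72, 8.71, 8.65, 8.63 and 8.75 in the shH2A.X arrays and of 9.65, 9.41, 9.49 and 9.46 in the shCTRL arrays. The groups did not overlap, and MTAP was 1.75-fold lower (log2 difference −0.81, limma adjusted p = 3.9e-06, SE 0.06). Later enzymes of the same salvage route moved the other way, ADI1 by 0.34 (limma adjusted p = 0.0132, SE 0.09) and APIP by 0.30 (adjusted p = 0.00833, SE 0.07), while ENOPH1 and MRI1 did not pass. In methionine and cysteine metabolism CTH, which makes cysteine from cystathionine, fell by 0.40 (limma adjusted p = 0.00275, SE 0.08). AHCY, which cleaves S-adenosylhomocysteine in the methionine cycle, fell by 0.38 (limma adjusted p = 0.00164, SE 0.07). In all, 2 of 15 measured genes rose (13.3%, near the 12.2% of all genes) and 4 fell (26.7%, where 10.7% of all genes did). Of 14 measured genes of arginine, ornithine and proline metabolism 2 fell and 0 rose by limma, and the 14.3% that fell lay near the 10.7% of all genes. At an unadjusted limma p under 0.05, 6 fell and 1 rose, where 2400 and 2569 of all 14884 genes did. In the methods' t-test after adjustment 2 fell and 0 rose, where 1488 and 1725 of all genes did. ASS1, of arginine synthesis, fell by 0.24 (limma adjusted p = 0.0144, SE 0.06). PYCR1, of proline synthesis, fell by 0.26 (adjusted p = 0.0364, SE 0.08), a call that was lost without any of shH2A.X replicates 4 (0.0632) and 5 (0.0691) and of shCTRL replicates 1 (0.104), 2 (0.0686) and 3 (0.0749), with p-values adjusted over all probe sets (0.0933) and in the methods' t-test (0.065), with 0.00588 to 0.104 across all alternatives. OAT, which links ornithine to proline, had a log2 difference of 0.12 (adjusted p = 0.21).

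Over these 7 lists together, 5 of 57 measured genes other than SAT1 were higher (8.77%) and 11 were lower (19.3%), where 12.2% and 10.7% of all genes were. Their log2 differences ran from −0.81 to 0.47, with a median of −0.07, against 0.00 for all genes tested. The lists held 82 genes, and those with no named probe set here, ARG1, ARG2, MAT2A and SLC3A2 among them, were not analysed.

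**Figure D2:**
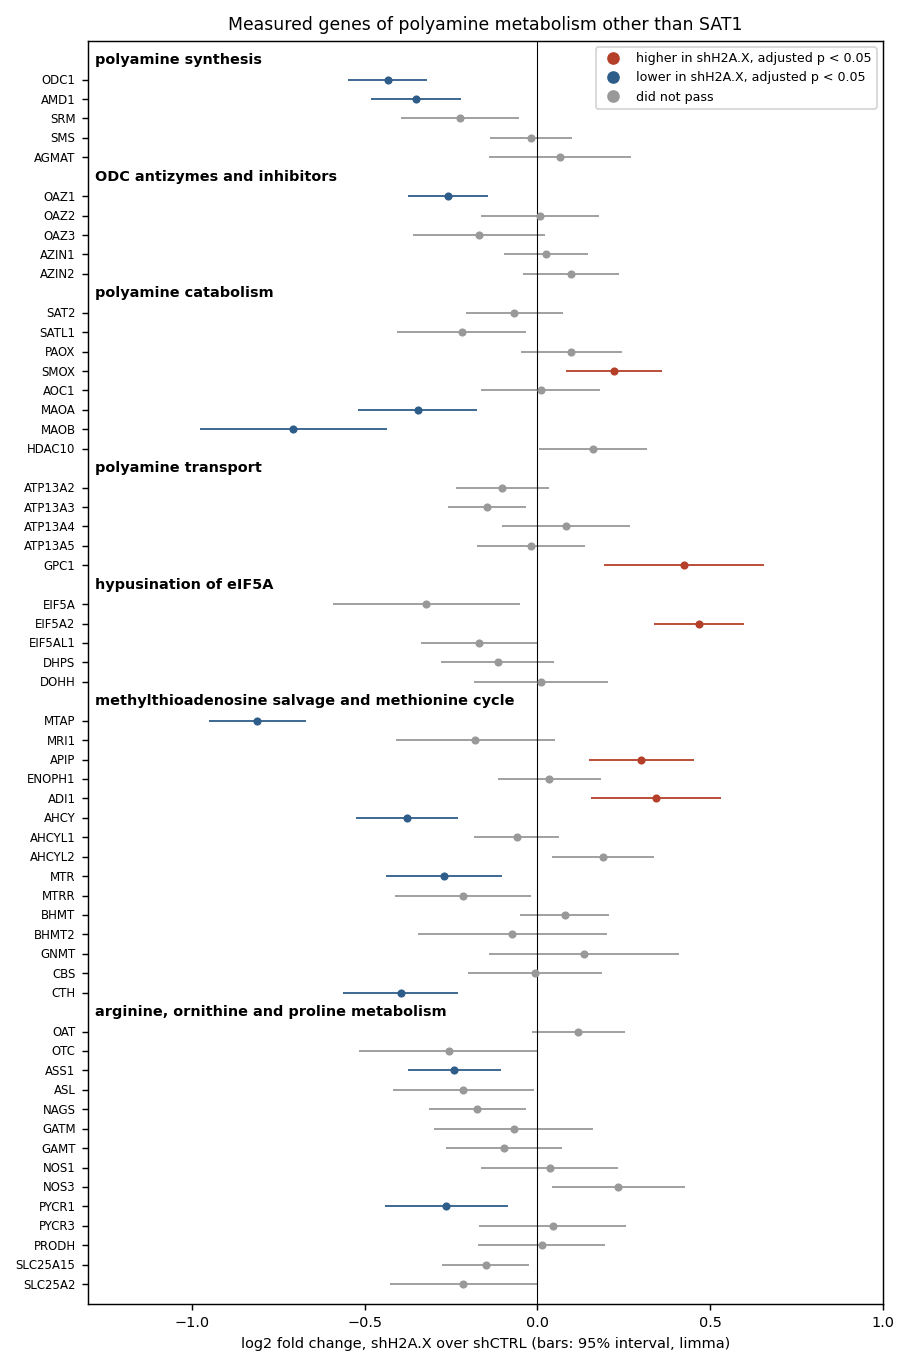
Log2 difference of shH2A.X over shCTRL (horizontal axis) with its 95% interval for the 57 measured genes of 7 lists other than SAT1, grouped by role. Points are coloured where the limma test passed, 5 higher and 11 lower, and MTAP has the lowest value at −0.81.

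The genes beside SAT1 on chromosome X were examined because neighbouring genes can change together. The 5 measured genes on either side were taken in the order of their starts. The stretch they span holds 36 genes of the gene table, 17 of them protein-coding, so unmeasured genes lie between them. By limma 2 of these 10 fell and 1 rose, while 7 did not pass, so that 3 of 10 were called where 22.9% of all genes were. ACOT9, a mitochondrial acyl-CoA thioesterase whose gene starts at −82.1 kb from the start of SAT1, had values of 8.70 to 8.85 in shH2A.X and of 8.71 to 8.93 in shCTRL arrays, with a log2 difference of −0.01 and a 95% interval of −0.15 to 0.13. PRDX4, a peroxiredoxin of the endoplasmic reticulum, is the next measured gene outwards. PRDX4 had values of 5.96, 6.07, 6.07, 6.06 and 5.97 in the shH2A.X arrays and of 6.62, 6.63, 6.47 and 6.70 in the shCTRL arrays, and fell by 0.58 (limma adjusted p = 4.96e-05, SE 0.06). On the other side, APOO, a subunit of the mitochondrial MICOS complex that starts 50.2 kb after SAT1, had values of 6.80, 6.93, 6.99, 6.92 and 6.96 in the shH2A.X arrays and of 7.43, 7.48, 7.41 and 7.99 in the shCTRL arrays. APOO fell by 0.66 (limma adjusted p = 0.00123, SE 0.11), with shCTRL replicate 4 well above the rest of its group, and by 0.52 without that array.

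Farther out the differences were smaller or dim. KLHL15 had a log2 difference of −0.25 (limma adjusted p = 0.0711, SE 0.09, with 0.0185 to 0.192 across all alternatives). It did not pass in 14 of 17 alternatives. The others, in which it passed, include the fit without shCTRL replicate 3 (0.0185) and that with a trend and robust prior. ZFX-AS1, an antisense RNA of the ZFX locus, was higher by 0.38 (limma adjusted p = 0.00772, SE 0.09), with means of 3.57 in shH2A.X and 3.20 in shCTRL cells that lay below the median of every array. Whether the probes tell its strand from that of ZFX is not given in the sources used here. SCARNA23 had a log2 difference of −0.45 (limma adjusted p = 0.0798, SE 0.17, with 0.000668 to 0.186 across all alternatives). It passed with a trend and robust prior and without shH2A.X replicate 4 (0.000668). The value of 5.04 in that array exceeded the 4.01 to 4.33 of its companions. CXorf58, at a dim 2.39 in shH2A.X and 2.61 in shCTRL cells, passed only without shCTRL replicate 4 (adjusted p = 0.0498, with 0.0498 to 0.384 across all alternatives). CBLL2, DDX53 and PTCHD1 had log2 differences of 0.19, 0.09 and 0.06 and did not pass. SMS, which also lies on chromosome X, did not pass either, as given above.

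**Figure D3:**
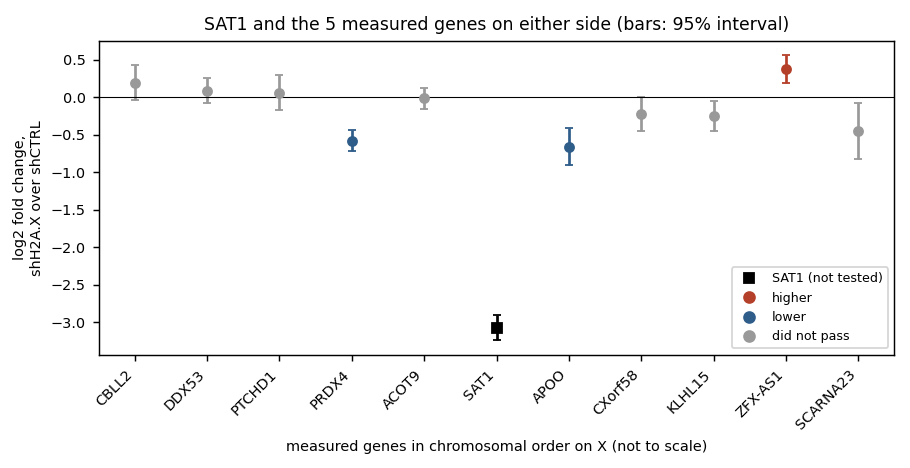
Log2 difference of shH2A.X over shCTRL (vertical axis) with its 95% interval for SAT1 (black square) and the 5 measured genes on either side of it on chromosome X, in order and not to scale. SAT1 lies at −3.07, whereas its neighbours lie between −0.66 and 0.38.

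Genes reported to regulate SAT1 or ODC1 moved in both directions. Of 14 measured, 5 rose (35.7%) and 6 fell (42.9%), where 12.2% and 10.7% of all genes did, with a median log2 difference of 0.07. MYC, which activates ODC1, had values of 8.28, 8.07, 8.12, 7.92 and 7.89 in the shH2A.X arrays and of 9.74, 9.79, 9.81 and 9.81 in the shCTRL arrays. It fell the most of the list (log2 difference −1.73, limma adjusted p = 5.99e-08, SE 0.08), and was 3.31-fold lower. MXD1, which competes with MYC for MAX, fell by 0.55 (adjusted p = 0.0019, SE 0.10), and STAT3, a transcription factor of cytokine signalling, fell by 0.53 (adjusted p = 3.29e-05, SE 0.05). NFE2L2, the factor through which polyamine analogues act on SAT1 transcription, ranged from 8.30 to 8.41 in shH2A.X and from 8.13 to 8.31 in shCTRL arrays. The ranges overlapped, with a log2 difference of 0.10 (limma adjusted p = 0.255, SE 0.06). KEAP1, which restrains NFE2L2, had values of 8.97, 9.13, 9.11, 9.08 and 9.01 in the shH2A.X arrays and of 8.57, 8.49, 8.52 and 8.66 in the shCTRL arrays, and rose by 0.50 (adjusted p = 0.000117, SE 0.06). PPARG, a nuclear receptor reported to raise SAT1 transcription in human colon cancer cells, rose by 0.58 (adjusted p = 0.000716, SE 0.09), with values of 6.04 to 6.45 in the shH2A.X arrays and of 5.52 to 5.80 in the shCTRL arrays. PPARA, its relative, rose by 0.55 (adjusted p = 0.000154, SE 0.07). PMF1 has no named probe set here.

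Other target genes of these factors were counted beside SAT1 and ODC1. Of 10 measured NFE2L2 targets 5 rose (50%) and 2 fell (20%), where 12.2% and 10.7% of all genes did, with a median of 0.17. TKT, a transketolase of the pentose phosphate pathway, rose by 0.48 (limma adjusted p = 8.4e-05, SE 0.06), OSGIN1 by 0.37 (adjusted p = 0.00789, SE 0.09) and HMOX1, which degrades haem, by 0.37 (adjusted p = 0.00529, SE 0.08). GSR, glutathione reductase, fell by 0.33 (adjusted p = 0.00067, SE 0.05). TALDO1, of the same pathway as TKT, fell by 0.34 (adjusted p = 0.0302, SE 0.10), a call lost without shCTRL replicate 3 (0.0827) or shCTRL replicate 4 (0.08), with p-values adjusted over all probe sets (0.0786) and in the methods' t-test (0.0753), with 0.0131 to 0.0827 across all alternatives.

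Of 20 listed targets of MYC, mostly of nucleotide and nucleolar metabolism, 12 were measured. NCL, which fell by 0.20 (limma adjusted p = 0.016), is counted both among these 12 and among the regulators above. All 12 lay below 0, as did 7301 of the 14884 genes tested. By limma 8 of the 12 fell (66.7%) and 0 rose, where 10.7% of all genes were lower, and the median of the 12 was −0.25. At an unadjusted limma p under 0.05, 10 of the 12 were lower and 0 higher, against 2400 lower over all genes. In the methods' t-test after adjustment 10 were lower and 0 higher, against 1488 lower over all genes. BOP1, a ribosome assembly factor, had values of 7.46, 7.56, 7.49, 7.45 and 7.50 in the shH2A.X arrays and of 8.16, 8.12, 8.14 and 7.96 in the shCTRL arrays. BOP1 fell by 0.60 (limma adjusted p = 2.81e-05, SE 0.06), IMPDH2, of guanine nucleotide synthesis, by 0.55 (adjusted p = 3.85e-05, SE 0.06), and FBL, the methyltransferase fibrillarin, by 0.50 (adjusted p = 0.000112, SE 0.06). The log2 differences of the 12 ran from −0.60 to −0.07.

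**Figure D4:**
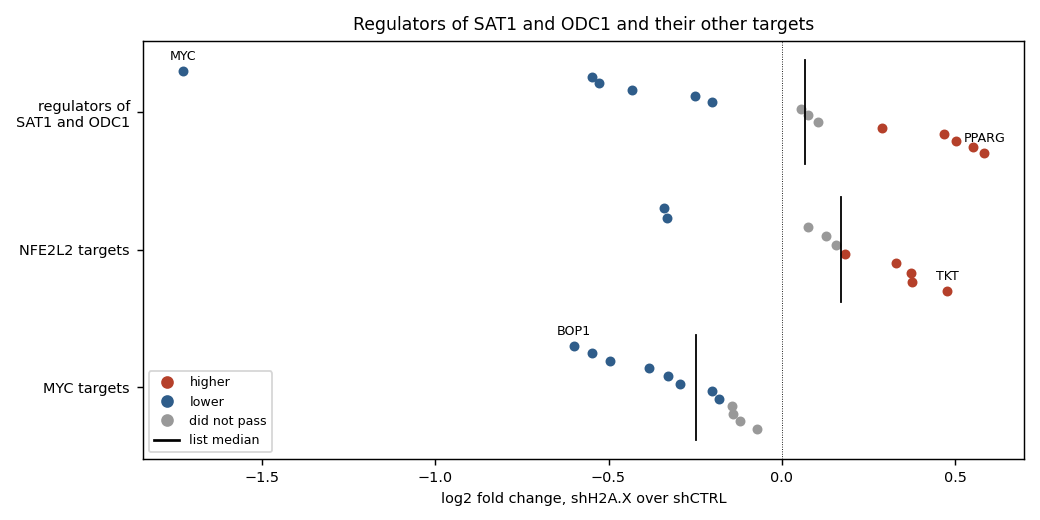
Log2 difference of shH2A.X over shCTRL (horizontal axis) of each measured gene among regulators of SAT1 and ODC1 and among targets of NFE2L2 and MYC, coloured where the limma test passed, with the list median as a black line. All 12 MYC targets lie below 0, whereas the NFE2L2 targets lie on both sides, 5 of 10 higher and 2 lower.

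The genes with array values most like those of SAT1 were named by Pearson correlation over the 9 arrays. They were DUSP6, RNF43, GRB14, USP46 and PSAT1, each with r of 0.996 to 0.997. Since the groups were so far apart for SAT1, such values reflect the group difference, and 389 genes (2.61%) had r of at least 0.95. ODC1 had r of 0.99 and MTAP of 0.99, whereas SMS had 0.24 and SAT2 0.44. Each array was then taken as its deviation from its group mean, so that only the spread within groups remained. The highest values were those of CEP44 (0.95), DAZ1 (0.95), SRSF11 (0.93), IGFBP7-AS1 (0.92) and AANAT (0.92). Of these, DAZ1 (means of 3.07 in shH2A.X and 2.94 in shCTRL arrays) and IGFBP7-AS1 (4.40 and 4.42) lay below the median of every array. Among the 14884 genes tested, 83 other than SAT1 had r of at least 0.8. By this measure RNF43 had r of −0.08, DUSP6 of 0.39 and ODC1 of 0.65. ODC1 stood highest of the 9 polyamine genes, and the others ranged from −0.58 (PAOX) to 0.47 (AZIN1). AMD1 and OAZ1, which also fell, had r of 0.04 and −0.225. These correlations are descriptions over 9 arrays that share their processing.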

How the data were processed

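RNA of 9 HCT116 samples was measured, 5 shH2A.X and 4 shCTRL, 1 array each. As deposited by the authors, values are on a log2 scale (taken from their range), for 53617 probe sets. Per the submitters' processing notes, Affymetrix Expression Console produced CHP files, and CEL files were normalized with Partek 6.6. The methods also name Partek for the differential expression of the arrays, and state no test for it. The labels were followed where they list 4 shCTRL arrays and the methods 5. Neither the method of normalization nor any scan batch is given in the sources used here. Precision is limited by the number of arrays (median SD within groups 0.127).

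The platform annotation named 1 gene each for 16098 probe sets. Where several were named for a gene, the one with the highest mean over all arrays stood for it. Groups were compared with limma 3.58.1 in R 4.3.3 (lmFit, eBayes, Benjamini-Hochberg over 14884 genes, threshold 0.05), with no filter. Tested on simulated data of this layout with 14884 genes, the fit found 79% of 100 genes altered 1.5-fold, found 98% of 100 altered 2-fold, and made 183 calls, 6 of them false. No other gene was altered in the simulation, whereas 22.9% of genes were called in the real data, so recovery there may differ. A motif was searched in RefSeq windows of 300 bases. Protein sequences were not analysed here, and one further list of target genes is not reported here. The members and gene lists were chosen with earlier results of these data known. Genes were named by a rule: the 10 members, the genes of 5 core lists that passed, the 3 largest rises and falls that passed in other lists, 5 neighbours a side, and the 5 most alike. Others named beside them, as the rest of a short list, were chosen after their values were seen.

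SAT1, the genes named by rule from lists and neighbours, and the counts of lists, neighbours and all genes were recomputed under several alternatives. These were quantile normalization, arrays centred on their medians, dim probe sets left out (mean under 4.56), and a mean-variance trend with robust prior. Others were the two-tailed t-test that the methods give for parametric data (the methods' t-test), and the replicate number as a block. Further ones were the mean of a gene's probe sets, p-values adjusted over all probe sets, and each array left out in turn. Marker counts were recomputed only with the methods' t-test, and the likeness to SAT1 only with Spearman's rho.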

Additional observations from a re-analysis of the deposited data

Results flagged for a closer look

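Among the 59 genes named, 118 groups of 4 or 5 arrays were examined for an array that stood far from the rest, which chance gives in about 5% of groups, and 5 were found. The shCTRL replicate 4 array stood above its group in both measured genes next to SAT1. Its value was 7.99 for APOO against 7.41 to 7.48 in the other shCTRL arrays, and 8.93 for ACOT9 against 8.71 to 8.74. The shH2A.X replicate 3 array stood above its group for CXorf58, at 2.58 against 2.33 to 2.35, and for EGR1, at 7.65 against 7.23 to 7.32. The shH2A.X replicate 5 array stood below its group for TALDO1, at 5.95 against 6.34 to 6.41. For SAT1 and the 9 polyamine genes no array stood apart by this measure.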

How the results depend on the processing

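The log2 difference of SAT1 kept its sign under all 17 alternatives, and stayed between −3.11 and −3.02 when an array was left out. ODC1, AMD1 and OAZ1 kept their calls under every alternative, whereas SMOX and SRM did not, as given above. Counts changed as follows; the cause was not tested. With p-values adjusted over all probe sets, 0 of the 9 polyamine genes and 0 catabolic genes were higher, and 1 arginine gene and 1 NFE2L2 target were lower. Without dim probe sets, which drops genes and so shortens the adjustment, 0 neighbours were higher, and 1 transport gene and 4 arginine genes were lower. With the mean of a gene's probe sets 0 transport genes were higher. After quantile normalization 1 transport gene was lower and SMS differed by 0.0236. In the methods' t-test 1 transport gene and 1 NFE2L2 target were lower. With a trend and robust prior 4 neighbours and 1 transport gene were lower. By Spearman's rho, 0 of the 5 genes most like SAT1 were those named by Pearson's r.

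Deviations of arrays with the same replicate number correlated at −0.086 to 0.024, and no array correlated best with its own number, so the numbers were not taken to pair samples. With the replicate number as a replicate block, 0 of the 9 polyamine genes, 2 genes of the 7 lists, 0 catabolic, 0 transport and 1 methionine gene were higher, and 1 catabolic gene, 0 arginine genes and 1 NFE2L2 target were lower. The calls of SMOX, MAOA, GPC1, APIP, PYCR1, ASS1 and TALDO1 were lost (adjusted p = 0.0518 to 0.1).

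Leaving out 1 array at a time gave 0 to 1 higher of the 9 polyamine genes, of the catabolic genes and of the arginine genes, and 0 to 1 lower of the hypusination genes. It gave 1 to 3 lower arginine genes and 1 to 2 lower NFE2L2 targets. The polyamine and catabolic counts moved without shH2A.X replicate 1 or shCTRL replicates 1, 2 or 4 and the hypusination count without shCTRL replicate 2. The lower arginine count was 1 without shH2A.X replicates 4 or 5 or shCTRL replicate 2, and 1 arginine gene was higher without shCTRL replicate 3. Of the NFE2L2 targets 1 was lower without shCTRL replicates 3 or 4. Over all genes it gave 1532 to 1680 higher and 1326 to 1505 lower. SMS lay between −0.0332 and 0.0097, PTCHD1 between −0.0194 and 0.1332 and ACOT9 between −0.0352 and 0.0388, with the sign turned without shCTRL replicate 1 (SMS), shCTRL replicate 2 (PTCHD1), and shCTRL replicate 4 or shH2A.X replicate 1 (ACOT9). None of these 3 passed.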
